A study of Gallus gallus with 12 samples.

Results

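Skin that forms scales was compared with skin that forms feathers on another limb at the same age, in 4 of the 12 RNA sequencing libraries of a study of chicken embryo skin. The libraries were chosen by their titles. Of the 4, 2 were of skin of the tarsometatarsus, a hindlimb segment, labelled as scale at embryonic day 9 (E9). The other 2 were of wing skin, labelled as feather at E9. All embryos were White Leghorn chickens, untreated, and both groups were at Hamburger and Hamilton stage 35. The remaining 8 libraries were of thigh skin at E9, of dorsal skin at E9 and E7, and of the scale region at E11. They entered the fit and are named where a level in another region is given. Titles call the tissue dermis while the tissue labels call it skin, and epidermal transcripts were present in all 4 libraries, as shown further on. The labels do not say whether the libraries of a group stem from different embryos, and the p-values then measure only a spread that may be technical. The scale region lies on the hindlimb and the wing on the forelimb, so that appendage type and limb cannot be told apart in this comparison. Position along the limb and the progress of appendage formation at E9 may differ as well. Neither can be separated from appendage type here. In bulk tissue fewer cells of a type and less RNA per cell cannot be told apart either.

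In birds the wing and the leg are built from the same tissues under different selector genes. TBX5 is active in forelimb mesenchyme, and PITX1 and TBX4 are active in hindlimb mesenchyme, while HOX genes mark position along the trunk and along each limb. The dermis tells the overlying epidermis which appendage to make. In feather-forming skin dermal cells gather into condensations beneath epidermal placodes under WNT, FGF, BMP, hedgehog, NOTCH and EDA signals, and the scales on the front of the foot arise as broader plates somewhat later.

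Values are in CPM, the deposited table's read counts scaled to an effective library size, and are given for replicate 1 and then replicate 2. Differences are on the log2(CPM + 1) scale, scale minus wing, with the standard error (SE) of the fit, and they understate the change of genes at low CPM. A gene is called when limma's test over all rows, two-sided and adjusted by the Benjamini-Hochberg method, gave an adjusted p under 0.05. The wing libraries held 16828134 and 20641981 reads and the scale libraries 14038198 and 17014698, so that 3 reads, the limit that a count of 0 allows, stood at 0.143 to 0.208 CPM, for counting error only. Rank correlation between replicates over genes was 0.993 in wing and 0.988 in scale. Of all 12 libraries only thigh replicate 2 stood apart in mitochondrial transcripts, at 11.2% of the total against 2.90% to 4.25%, and it enters the results through the shared estimate of spread and the thigh values. None of 5 W-linked rows was called for scale against wing. The W chromosome is carried by female birds. The sum of these rows was 295 to 415 CPM in wing and scale, 369 and 620 CPM in thigh and 18.5 and 18.3 CPM in dorsal skin at E9. The part of this gap in the dorsal values given below was not tested.

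Of 12277 rows tested, 1092 (8.89%) were called, 585 (4.77%) with more transcript in scale skin and 507 (4.13%) with less. Counts of called list members are to be read beside these shares. At an unadjusted p under 0.05 there were 2570 rows (20.9%). The differences were at least 2-fold for 678 rows, 350 higher and 328 lower, and at least 8-fold for 31 rows, 9 higher and 22 lower. The median difference over all rows was close to 0, at -0.005, and 90% of rows lay between about -0.72 and 0.80. The 2 libraries of each group did not overlap in 58.4% of all rows, so that a lack of overlap alone says little with 2 against 2. The count of calls depended on single libraries: it was 500 without wing replicate 1, 671 without wing replicate 2, 629 without scale replicate 1 and 730 without scale replicate 2. The excess of higher over lower rows also turned: 308 were higher and 321 lower without scale replicate 1, and 223 and 277 without wing replicate 1. The count of calls rose to 1773 when both thigh libraries were left out of the fit. Of the 1092 calls, 397 were made in each of the 4 fits that left out a compared library, and among the 122 with a difference of 2 or more in log2 units 112 were. The plot of levels in scale against wing skin shows that most rows lay along the diagonal and that a small set of regulators stood far from it.

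**Figure D1:**
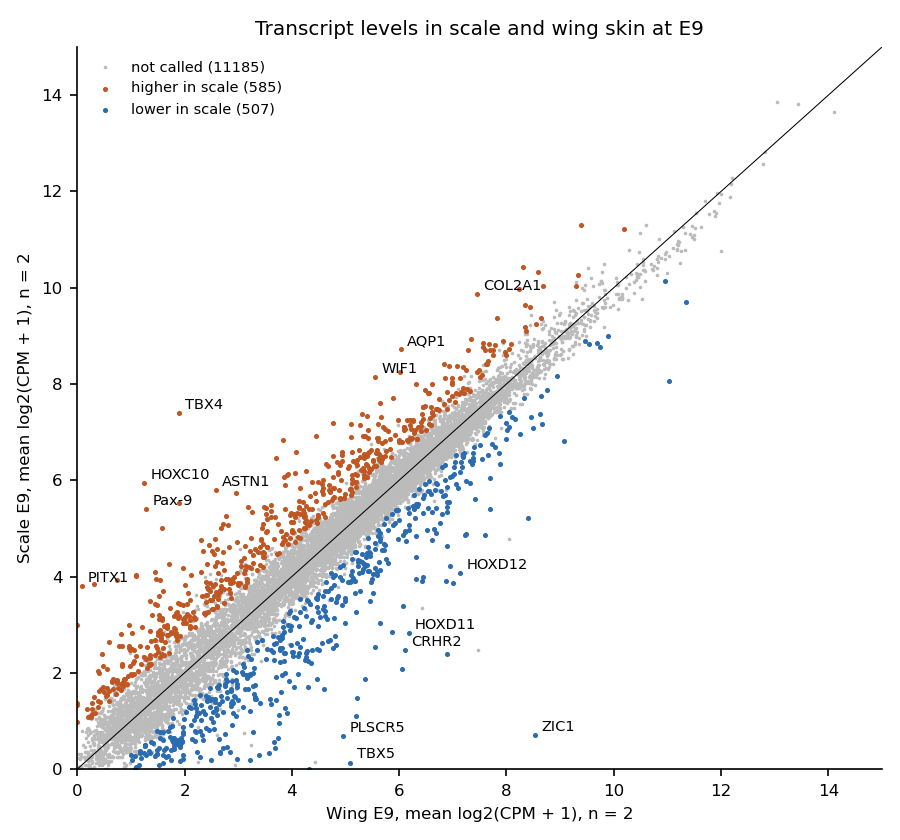
Mean level of each of 12277 rows in wing E9 (horizontal axis) and scale E9 (vertical axis), log2(CPM + 1), n = 2 libraries each. Orange points are the 585 rows called higher in scale, blue points the 507 called lower, grey points rows not called; the line marks equal levels. ZIC1 and TBX4 lie farthest from the line on either side.

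The genes that tell forelimb from hindlimb separated the groups by large margins, each in the direction that the labels give. TBX5, the forelimb T-box factor, stood at 28.0 and 39.0 CPM in wing and at 0.14 and 0.06 CPM in scale. Its scale values rest on 3 reads against 1290 in wing, a ratio of 359 with a 95% counting interval of 122.7 to 1745. TBX5 differed by -4.95 ± 0.22 (adjusted p = 5.29e-08). TBX4, its hindlimb counterpart, stood at 2.57 and 2.85 CPM in wing and at 186 and 149 CPM in scale, a difference of 5.50 ± 0.26 (adjusted p = 5.29e-08). PITX1, which acts upstream of TBX4 in the hindlimb, stood at 0.12 and 0 CPM in wing, on 2 reads in all, and at 11.98 and 13.95 CPM in scale. Its ratio was 247 with a counting interval of 67.8 to 2042 and its difference 3.72 ± 0.23 (adjusted p = 6.69e-07). The groups did not overlap for any of these genes, and all 3 calls held in every alternative run.

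Levels in the other E9 regions were set beside this contrast. What part of it belongs to the wing and what part to the scale region was not tested. The wing libraries are shared by the next comparisons, so the values are set side by side. Wing differed from thigh in 20.9% of rows (9.25% higher and 11.6% lower in wing) and from dorsal skin in 20.1% (7.62% and 12.5%). As given above, thigh replicate 2 stood apart in mitochondrial transcripts and dorsal E9 skin in W-linked rows. TBX5 was at or below 0.57 CPM in thigh and dorsal skin, and the wing exceeded thigh by 4.48 (adjusted p = 5.45e-08). TBX4 stood at 45.7 and 25.3 CPM in thigh, between wing and scale, and at 2.14 and 3.18 CPM in dorsal skin, where it did not differ from wing beyond the spread (0.03, adjusted p = 0.945). PITX1 was at 2.20 and 2.23 CPM in thigh and was lower in wing by 1.60 in log2 units (adjusted p = 4.22e-04).

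ZIC1 gave the largest difference of any named gene. This zinc finger factor, known for neural and dorsal trunk mesoderm patterning, stood at 395 and 344 CPM in wing and at 0.62 and 0.64 CPM in scale. The difference was -7.83 ± 0.21 (adjusted p = 1.90e-10). The groups did not overlap. The order of ZIC1 levels among E9 regions was wing, dorsal (105 and 140 CPM), thigh (14.1 and 20.3 CPM) and scale. Wing exceeded dorsal by 1.60 (adjusted p = 1.69e-04) and thigh by 4.37 (adjusted p = 5.45e-08), so each step from wing to the feather regions was itself past the threshold. PLSCR5, a member of the phospholipid scramblase family, was the nearest measured gene to ZIC1 on its side, 4 genes away in the GRCg7b gene order. It stood at 27.6 and 32.9 CPM in wing and at 0.62 and 0.58 CPM in scale (-4.28 ± 0.21, adjusted p = 6.41e-08), and at 0.42 to 0.82 CPM in thigh and dorsal skin.

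**Figure D2:**
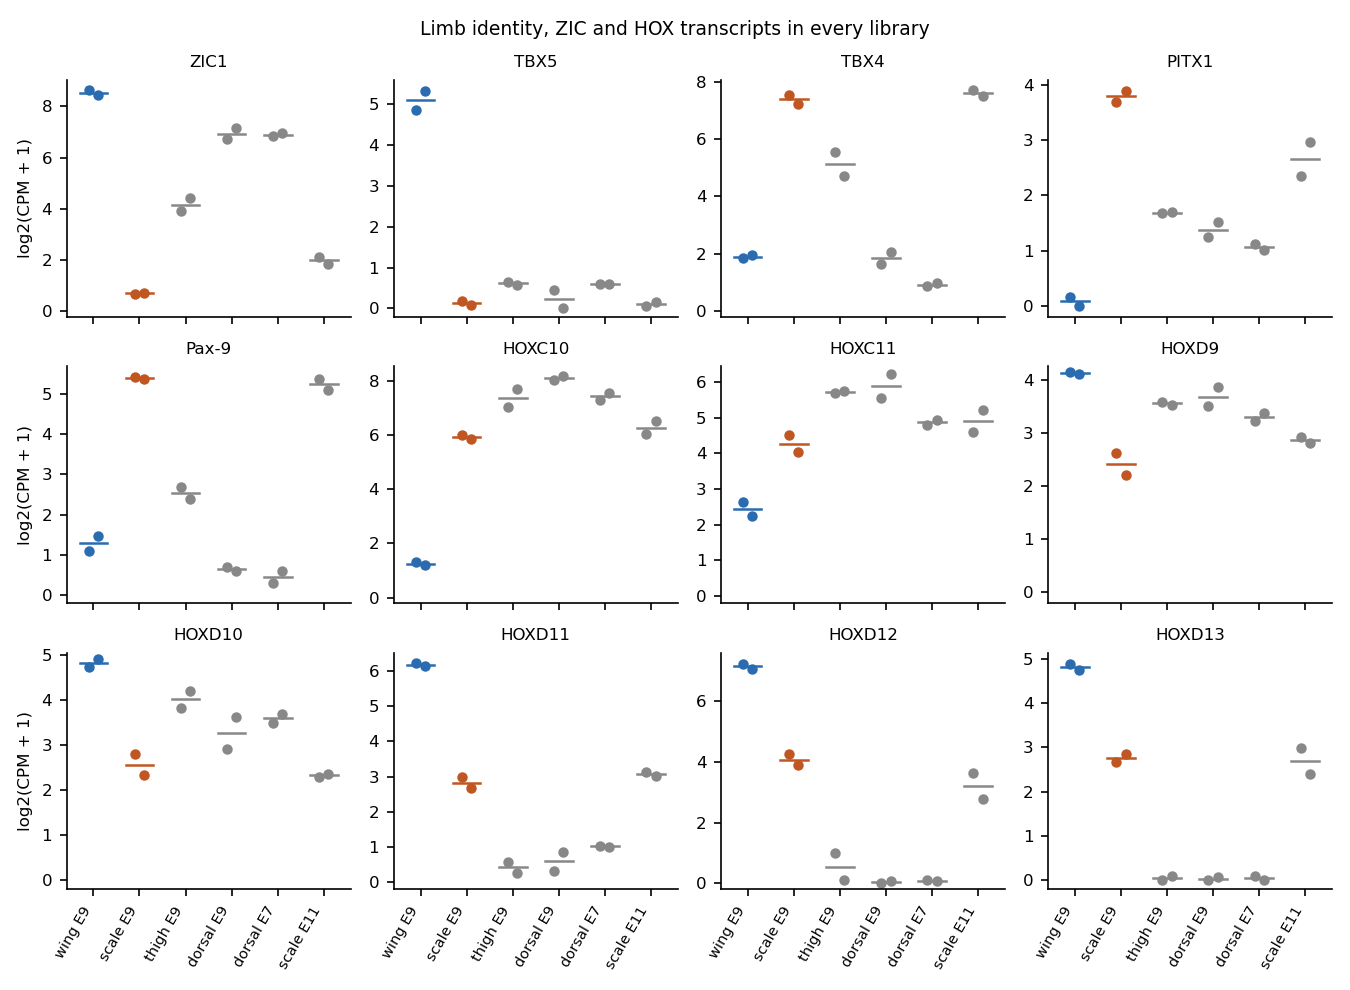
Levels of 12 regulators in each library of the 6 groups, log2(CPM + 1), with wing E9 in blue, scale E9 in orange and the other groups in grey; points are libraries (n = 2 per group) and bars group means. Each panel has its own vertical scale. TBX5 is near 0 outside wing, and HOXD11 and HOXD12 are highest in wing, lower in scale and near 0 in thigh and dorsal skin.

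Those HOX genes of the later paralog groups that were called differed in opposite directions by cluster, a reading made after values were seen. Of the 10 posterior HOX genes tested (groups 9 and up), 3 had higher and 5 lower levels in scale skin, and these counts were unchanged in each of the 4 fits without a compared library. DESeq2 called 4 of the 10 higher and 5 lower. Of all rows, 4.77% were higher and 4.13% lower by limma. All 5 measured HOXD genes from HOXD9 to HOXD13 were lower. HOXD11 stood at 73.3 and 69.3 CPM in wing and at 6.93 and 5.37 CPM in scale (-3.35 ± 0.23, adjusted p = 1.59e-06). HOXD12 stood at 149 and 132 CPM in wing and at 17.9 and 13.9 CPM in scale (-3.07 ± 0.32, adjusted p = 4.56e-05). These genes pattern the distal limb. HOXD13 stood at 28.6 and 25.7 CPM in wing against 5.40 and 6.19 CPM in scale (-2.05 ± 0.22), HOXD10 differed by -2.26 ± 0.26 and HOXD9 by -1.72 ± 0.21. No library overlapped between groups for any of them.

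Along the HOXD cluster, in the GRCg7b gene order, the differences at one end of the cluster were smaller. HOXD3 differed by -0.41 ± 0.22 (adjusted p = 0.327) and HOXD8 by -0.21 ± 0.16 (adjusted p = 0.516), neither past the threshold. HOXD4, at -0.68 ± 0.19 (adjusted p = 0.0421), lost its call in every fit without a compared library, with adjusted p of 0.0839 without scale replicate 1, 0.175 without scale replicate 2, 0.125 without wing replicate 1 and 0.292 without wing replicate 2. DESeq2 did not call it either (0.0583). EVX2, the gene that follows HOXD13, was low in both groups, at 2.15 and 2.66 CPM in wing and 0.90 and 0.82 CPM in scale (-0.87 ± 0.22, adjusted p = 0.0258). Its call likewise ended in each of these fits, at adjusted p of 0.0971, 0.104, 0.0791 and 0.174 in the same order, and in edgeR (0.0701) and DESeq2 (0.267). MTX2, beyond HOXD3 on the other side, differed by -0.10 ± 0.17 (adjusted p = 0.805). HOXD11, HOXD12 and HOXD13 were at or below 1 CPM in thigh and dorsal E9 skin, so scale lay between wing and those regions. Wing exceeded thigh by 5.75, 6.59 and 4.76 for these genes. HOXD10, by contrast, was at 13.2 and 17.5 CPM in thigh, above its scale level.

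Of 11 HOXB and HOXC genes tested, a group counted after values were seen, 4 were higher in scale and none was lower. Of all rows 4.77% were higher and 4.13% lower. The higher genes were HOXC10, HOXC11, HOXB9 and HOXB3. The remaining 7 were not called, 3 of them above 0 and 4 below. HOXC10, which is used in the hindlimb and lower trunk, stood at 1.49 and 1.28 CPM in wing and at 63.3 and 57.4 CPM in scale, a difference of 4.68 ± 0.22 (adjusted p = 5.29e-08). Thigh and dorsal skin held still more HOXC10, at 130 to 290 CPM, and wing was lower than thigh by 6.12 in log2 units. HOXC11 stood at 5.14 and 3.71 CPM in wing and at 21.6 and 15.5 CPM in scale (1.84 ± 0.27, adjusted p = 6.44e-04), and HOXB9 differed by 1.52 ± 0.23 (adjusted p = 8.78e-04). HOXC9 (0.83 ± 0.29, adjusted p = 0.109) and HOXC12 (-0.17 ± 0.79) were not called. HOXB3, at 2.51 and 2.57 CPM in wing and 8.79 and 4.84 CPM in scale (1.09 ± 0.27), lost its call without scale replicate 1 (adjusted p = 0.254), wing replicate 1 (0.133) or wing replicate 2 (0.100).

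Other limb patterning factors were lower more often than higher in scale skin. Of 36 rows tested, 4 (11.1%) were higher and 10 (27.8%) lower, against 4.77% and 4.13% of all rows. With a compared library left out 7 to 9 were lower, and 2 higher, or 3 without wing replicate 2, and without the thigh libraries 7 were higher. LHX9, a LIM homeobox factor, was among the higher ones (1.63 ± 0.47) and lost its call without scale replicate 1 (adjusted p = 0.140), scale replicate 2 (0.196) or wing replicate 1 (0.502). It was not called by edgeR (0.0818) or DESeq2 (0.268), nor with only the 4 libraries compared (0.0909), and it stood between 0.0515 and 0.0640 with a pseudocount of 0.5 CPM, with quantile normalization, with no trend and without dorsal libraries. Pax-9, a paired-box factor of limb and craniofacial mesenchyme, was highest in scale, at 42.2 and 40.6 CPM against 1.14 and 1.76 CPM in wing (4.13 ± 0.22, adjusted p = 1.47e-07). Its level in thigh was 5.46 and 4.25 CPM and in dorsal skin 0.61 and 0.51 CPM. Alx-4, an aristaless-like factor of limb mesenchyme, stood at 99.3 and 95.6 CPM in wing and at 235 and 273 CPM in scale (1.37 ± 0.19, adjusted p = 4.14e-04). MSX2, a homeobox factor in BMP-responsive mesenchyme, stood at 24.4 and 21.8 CPM in wing and at 1.87 and 2.51 CPM in scale (-2.92 ± 0.32, adjusted p = 6.76e-05). SHOX2, which acts in the proximal limb, differed by -1.66 ± 0.22. OSR1, a factor of irregular connective tissue, was measured by a pair of transcript rows. The row named here differed by -1.83 ± 0.21, and the other is not reported here.

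In the wider set of SOX, FOX, TBX, GATA and KLF factors 10 of 44 (22.7%) were lower, against 4.13% of all rows. Only TBX4 was higher (2.27%, against 4.77% of all rows). The lower count was 9 or 10 in each fit without a compared library, and the median of the list, at -0.04, was near that of all rows. By edgeR 3 were higher and by DESeq2 2. GATA2 stood at 13.4 and 13.8 CPM in wing and at 3.95 and 2.22 CPM in scale (-1.87 ± 0.26, adjusted p = 4.84e-04). TBX18, of proximal limb and somite mesenchyme, stood at 117 CPM in both wing libraries and at 42.5 and 36.5 CPM in scale (-1.55 ± 0.29, adjusted p = 0.00441). The forkhead factors foxp2 (-1.77 ± 0.25), FOXC2 (-1.74 ± 0.29) and FOXD1 (-1.52 ± 0.22) and the SOXD factor SOX6 (-1.86 ± 0.26) were lower as well. EMX2, a homeobox factor of limb girdle and forebrain, stood at 123.1 and 112 CPM in wing and at 45.8 and 45.2 CPM in scale (-1.35 ± 0.19). SIM1 and SIM2, basic helix-loop-helix factors, stood at 63.2 and 52.0 CPM and at 14.5 and 12.8 CPM in wing. In scale SIM1 was at 8.31 and 4.55 CPM (-3.02 ± 0.22) and SIM2 at 1.59 and 1.23 CPM (-2.60 ± 0.24). Among the feather regions SIM1 was higher in thigh (143 and 139 CPM) than in wing, and SIM2 was at or below 1.44 CPM in thigh and dorsal skin. TBX18, foxp2, FOXC2, FOXD1, SOX6, EMX2, Alx-4, LHX9, SIM1 and SIM2 were singled out after their values were seen.

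Genes beside the most changed ones were often called too, in the same direction. For the 30 named genes with the largest differences, the nearest measured gene on either side within 5 genes in the GRCg7b order gave 56 neighbours that were not among the 30. Of these 16 (28.6%) were called, against 8.89% of all rows, and all 16 had the sign of the gene they neighbour. This count and the genes named from it were chosen after values were seen and were not tested, and the count includes HOX genes that neighbour HOX genes. Around Pax-9 the next measured genes on both sides were higher in scale. NKX2-8, a homeobox gene, had no read in wing and stood at 1.25 and 1.81 CPM in scale, at least 19.5-fold higher against a floor of 3 reads over the group (adjusted p = 5.70e-04). SLC25A21, a mitochondrial carrier, stood at 1.43 and 2.19 CPM in wing and at 8.31 and 11.2 CPM in scale (1.93 ± 0.25, adjusted p = 2.65e-04). MIPOL1, which overlaps SLC25A21 in that build, differed by 1.43 ± 0.26 (adjusted p = 0.00332), and the kit named in the labels does not mark strand, so their reads may be mixed. RALY, an RNA-binding protein gene 2 genes from Asip, stood at 34.8 and 33.3 CPM in wing and at 93.2 and 97.5 CPM in scale (1.46 ± 0.16). AHCY, next to Asip on the other side, was not called (0.44 ± 0.24, adjusted p = 0.332). Near TBX4, TBX2 (-0.47 ± 0.29, adjusted p = 0.403), BCAS3 (-0.18 ± 0.17, adjusted p = 0.60) and INTS2 (-0.03 ± 0.15) were not called. MED13, RNFT1 and TUBD1 were not called either. PPM1D, a phosphatase of the DNA damage response, lies 5 genes from TBX4 and is not in the count of nearest neighbours. It stood at 305 and 296 CPM in wing and at 1035 and 981 CPM in scale (1.74 ± 0.16, adjusted p = 1.84e-05). Thigh and dorsal libraries held 86.1 to 162 CPM of PPM1D, and wing exceeded thigh by 1.10 (adjusted p = 4.54e-04).

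Many genes of the feather bud dermis and placode were lower in scale skin. Of 25 rows of this list tested, 10 were lower and 2 higher, against 4.13% and 4.77% of all rows, with a median of -0.28 against -0.005. The list holds SOX18, one of the study's own regulators. The lower count was 9 or 10 in each fit without a compared library and 11 in both count tests, while the higher count of 2 was 0 without wing replicate 1 and 1 without scale replicate 1 or wing replicate 2, and 4 in DESeq2 and without the thigh libraries. DLL1, a NOTCH ligand, stood at 90.3 and 82.7 CPM in wing and at 14.7 and 14.9 CPM in scale (-2.47 ± 0.21, adjusted p = 9.81e-06). TNC, the matrix protein tenascin C of bud dermis, stood at 204 and 208 CPM in wing and at 46.9 and 36.0 CPM in scale (-2.30 ± 0.29, adjusted p = 2.12e-04). TRPS1, a repressor needed for hair and limb development in mammals, stood at 22.2 and 28.9 CPM in wing and at 6.58 and 4.44 CPM in scale (-2.04 ± 0.31). PTCH1, the hedgehog receptor and a target of the pathway, stood at 171 and 204 CPM in wing and at 95.4 and 78.4 CPM in scale (-1.10 ± 0.19, adjusted p = 0.00210). No library of these genes overlapped between groups.

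The study's own candidate regulators were represented by 4 tested genes, 2 of them lower and none higher by limma. DESeq2 called 3 of the 4 lower and none higher. Besides ZIC1, SOX18, a factor of lymphatic and blood vessel endothelium and of hair follicle mesenchyme in mice, stood at 82.4 and 87.5 CPM in wing and at 19.1 and 10.3 CPM in scale (-2.51 ± 0.22, adjusted p = 1.27e-05). Dorsal skin held far more, at 345 and 369 CPM, and wing was lower than dorsal by 2.06. SPRY2, an inhibitor of FGF signalling, stood at 107 and 122 CPM in wing and at 90.2 and 89.4 CPM in scale. It was not called by limma (-0.34 ± 0.14, adjusted p = 0.182). GRHL1, an epidermal grainyhead factor, overlapped between groups (0.44 ± 0.29, adjusted p = 0.446). Condensation genes that were not called included CTNNB1, the WNT effector (-0.21), Lef-1, its partner (-0.49), FGF10 (-0.28) and the placode receptor Edar (-0.42). The dermal factor cdermo-1 gave 0.61 and the growth factor receptor PDGFRA 0.38, also without a call. SHH, the ligand made by bud epithelium, was at 0.18 to 0.99 CPM in the 4 libraries. BMP4, a bud signal, was higher in scale, at 87.0 and 82.0 CPM against 31.4 and 41.1 CPM in wing (adjusted p = 0.00334), and its call ended without wing replicate 1 (1.02, adjusted p = 0.0570).

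WNT pathway genes were called in both directions. Of 53 tested, 10 (18.9%) were higher and 6 (11.3%) lower in scale, against 4.77% and 4.13% of all rows. The median was 0.24. The counts depended on single libraries: 6 were higher and 4 lower without scale replicate 1, 7 and 1 without scale replicate 2, 5 and 2 without wing replicate 1, and 10 and 2 without wing replicate 2. More were called by edgeR (12 higher and 11 lower), by DESeq2 (15 and 11) and without the thigh libraries (12 and 11). Among ligands WNT2B stood at 12.7 and 7.98 CPM in wing and at 44.3 and 41.2 CPM in scale (1.98 ± 0.29, adjusted p = 7.61e-04). WNT16 ran the other way, at 40.2 and 32.4 CPM in wing and at 1.04 and 2.80 CPM in scale (-3.73 ± 0.40, adjusted p = 6.35e-05). WNT16 in wing exceeded thigh by 2.02 (adjusted p = 0.00371) and dorsal skin by 2.92 (adjusted p = 2.24e-04).

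Secreted WNT inhibitors were called in both directions, 3 higher and 3 lower of 10 tested, a group counted after values were seen. Of all rows 4.77% were higher and 4.13% lower. WIF1, which binds WNT ligands, stood at 39.6 and 53.0 CPM in wing and at 278 and 287 CPM in scale (2.60 ± 0.21, adjusted p = 4.87e-06). Thigh, at 190 and 130 CPM, and dorsal skin, at 115 and 142 CPM, lay between, and wing was below thigh by 1.75 in log2 units (adjusted p = 9.73e-05). SFRP4, a decoy of frizzled type, stood at 10.7 and 10.3 CPM in wing and at 39.8 and 43.5 CPM in scale (1.89 ± 0.21). Dkk-1, which blocks the LRP coreceptors, was the third higher one (0.97 ± 0.24) and kept its call in 1 of the 4 fits without a compared library. APCDD1, a membrane inhibitor of WNT signalling, stood at 290 and 361 CPM in wing and at 908 and 692 CPM in scale (1.29 ± 0.22, adjusted p = 0.00211). AXIN2, a feedback target, stood at 201 and 209 CPM in wing and at 429 and 408 CPM in scale (1.03 ± 0.21). Its call ended without scale replicate 1 (adjusted p = 0.0680) or wing replicate 1 (0.0736). SFRP2, another frizzled-type decoy, went the other way at 120 and 116 CPM in wing and 67.7 and 48.0 CPM in scale (-1.03 ± 0.22). Its call ended without scale replicate 2 (-0.79, adjusted p = 0.107), wing replicate 1 (-1.01, 0.0812) or wing replicate 2 (-1.06, 0.0539). FRZB, of the same decoy family (-0.84 ± 0.19), was lower too, a call that ended without scale replicate 2 (adjusted p = 0.103) or wing replicate 2 (0.144). NOTUM, which inactivates WNT ligands (-0.82 ± 0.22), lost its call in each of the 4 fits, at adjusted p of 0.0554 to 0.199. Dkk-1, FRZB, NOTUM, APCDD1, AXIN2, SFRP2, BMP4 and the FGF receptor FGFR2 were singled out after their values were seen.

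BMP and TGF-beta genes gave 7 higher and 7 lower of 47 tested, with a median of 0.02. That is 14.9% in each direction, against 4.77% and 4.13% of all rows. With a compared library left out the higher count was 5, 6, 3 and 6 and the lower count 3, 3, 1 and 3, for scale replicates 1 and 2 and wing replicates 1 and 2. DESeq2 called 11 higher. SMAD9, a BMP-regulated effector, stood at 5.26 and 5.84 CPM in wing and at 38.6 and 28.8 CPM in scale (2.39 ± 0.19, adjusted p = 4.19e-06). INHBA, the activin A subunit, stood at 7.11 and 9.26 CPM in wing and at 45.1 and 40.2 CPM in scale (2.25 ± 0.28, adjusted p = 2.29e-04). For both genes wing stood apart from thigh in the same sense, by -2.39 and -3.17. BMP5 was lower in scale, at 7.34 and 7.94 CPM against 28.2 and 20.6 CPM (-1.54 ± 0.38). Its call ended without scale replicate 1 (-1.49, adjusted p = 0.131), scale replicate 2 (-1.59, 0.0863) or wing replicate 1 (-1.32, 0.180).

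In the FGF pathway 3 of 24 genes were higher and 3 lower, and the lower count was 3 in every fit without a compared library. The higher and the lower FGF genes were each 12.5% of those tested, against 4.77% and 4.13% of all rows. The lower genes were all ligands. FGF16 stood at 5.62 and 5.08 CPM in wing and at 0.48 and 0.12 CPM in scale (-2.30 ± 0.21, adjusted p = 1.52e-05). FGF18 stood at 8.73 and 6.51 CPM in wing and at 1.94 and 1.05 CPM in scale (-1.80 ± 0.27, adjusted p = 8.38e-04). FGF7, a mesenchymal ligand for epithelial receptors, stood at 51.6 and 58.1 CPM in wing and at 21.9 and 15.7 CPM in scale (-1.51 ± 0.23, adjusted p = 0.00108). The receptors FGFR2 (0.96 ± 0.18) and FGFR3 (1.28 ± 0.26) were higher in scale. FGFR2 lost its call without wing replicate 1 (adjusted p = 0.0661), and FGFR3 without wing replicate 1 (0.0918) or scale replicate 2 (0.0588). The higher count was 3, 2, 1 and 3 in the 4 fits, in the order given for BMP genes, and 5 in edgeR, in DESeq2 and without the thigh libraries. DESeq2 called 5 lower.

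The remaining pathways held few calls. PTCH1 was the 1 called gene of 17 in the hedgehog list (5.88% lower, close to the 4.13% of all rows). In that list edgeR called 1 more, higher, and DESeq2 and the fit without the thigh libraries 2. GLI1 (-0.42) and HHIP (-0.56), 2 further targets, were not past the threshold. In the NOTCH list 3 of 20 (15%) were lower and none higher, against 4.13% and 4.77% of all rows. JAG1, a ligand, stood at 95.7 and 108 CPM in wing and at 34.0 and 24.7 CPM in scale (-1.78 ± 0.19, adjusted p = 6.35e-05), DLL1 is given above, and HEY1, a target, differed by -0.92 ± 0.21. HEY1 lost its call without scale replicate 1 (-0.54, adjusted p = 0.158), wing replicate 1 (-0.87, 0.132) or wing replicate 2 (-0.97, 0.0684). In the EDA list NFKBIA, an inhibitor and target of NF-kB, was the only call among 6, at 28.7 and 30.8 CPM in wing and 95.01 and 74.1 CPM in scale (1.47 ± 0.25, adjusted p = 0.00195).

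Retinoic acid genes gave 2 higher and 2 lower of 15, or 13.3% in each direction, against 4.77% and 4.13% of all rows. CRABP-I, a cytoplasmic binding protein for retinoic acid, stood at 332 and 440 CPM in wing and at 1126 and 1456 CPM in scale (1.74 ± 0.23, adjusted p = 3.53e-04). ALDH1A2, which makes retinoic acid, stood at 18.4 and 24.9 CPM in wing and at 9.21 and 8.0 CPM in scale (-1.23 ± 0.23), a call that ended without wing replicate 2 (-1.02, adjusted p = 0.0563). The other calls of this list, CRABP2 (1.28 ± 0.33) and the retinol receptor STRA6 (-1.32 ± 0.29), were lost without wing replicate 1 (adjusted p = 0.0601 and 0.0812), without wing replicate 2 (0.193 and 0.0604) or without scale replicate 2 (0.0963 and 0.112). CRABP2 was also lost without scale replicate 1 (0.170).

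In the IGF system 2 of 16 genes (12.5%) were higher and 3 (18.8%) lower, against 4.77% and 4.13% of all rows. IGF2, a growth factor, stood at 17.3 and 22 CPM in wing and at 3.46 and 3.74 CPM in scale (-2.16 ± 0.18, adjusted p = 9.35e-06). Thigh and dorsal skin held 61.1 to 72.3 CPM of IGF2, so that the order was thigh and dorsal, then wing, then scale, with wing below thigh by 1.72 in log2 units. IGFBP7, a secreted binding protein, stood at 49.1 and 56.3 CPM in wing and at 23.5 and 24.6 CPM in scale (-1.10 ± 0.20, adjusted p = 0.00310). The 3 other calls, the proteases PAPPA (-1.14) and PAPPA2 (1.49) and the binding protein IGFBP2 (0.96), were each lost without scale replicate 2, at adjusted p of 0.227, 0.0718 and 0.103, and without wing replicate 1, at 0.0728, 0.179 and 0.150. Without scale replicate 1 they stood at 0.0548, 0.289 and 0.0513, and PAPPA and PAPPA2 were lost without wing replicate 2 too (0.261 and 0.139).

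Among the named genes with the largest differences several belonged to none of the lists above. All of those in the plot of the largest differences kept their call in every alternative run. NFATC2, a calcineurin-dependent factor, stood at 1.85 and 3.80 CPM in wing and at 56.6 and 35.5 CPM in scale (3.63 ± 0.29, adjusted p = 5.22e-06). PRDM12, a regulator of pain-sensing neurons, had no read in wing and stood at 7.69 and 6.25 CPM in scale, at least 87.0-fold higher against a floor of 3 reads over the group. It was at or below 0.19 CPM in thigh and dorsal skin. STK32A, a protein kinase, stood at 0.96 and 0.43 CPM in wing and at 15.4 and 13.0 CPM in scale (3.17 ± 0.24), with thigh and dorsal libraries at or below 1.32 CPM. PRDM12 and STK32A thus did not differ between wing and thigh beyond the spread (adjusted p = 0.461 and 0.509), and their high levels at E9 were measured in scale.

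ASTN1, an adhesion protein of migrating neurons, stood at 4.96 and 5.04 CPM in wing and at 53.5 and 56.0 CPM in scale (3.21 ± 0.23, adjusted p = 1.90e-06). CHL1, an adhesion molecule of the L1 family, stood at 1.49 and 2.00 CPM in wing and at 21.4 and 12.1 CPM in scale (2.65 ± 0.28). BRINP2, known from neurons, differed by 2.91 ± 0.37. IGSF10, a large secreted immunoglobulin-domain protein, stood at 13.9 and 12.7 CPM in wing and at 120 and 106 CPM in scale (2.997 ± 0.21, adjusted p = 1.90e-06). AQP1, a water channel, stood at 50.02 and 82.1 CPM in wing and at 348 and 510 CPM in scale (2.70 ± 0.27, adjusted p = 3.36e-05). Dorsal skin held 257 and 249 CPM of AQP1, closer to scale than to wing. Asip, the agouti signal that sets feather and hair pigment type, was measured by a pair of transcript rows. The higher row stood at 12.6 and 11.4 CPM in wing and at 74.9 and 103 CPM in scale (2.77 ± 0.20, adjusted p = 2.42e-06), and the other differed by 2.39 ± 0.23. Thigh was close to scale for the first row, at 87.8 and 81.0 CPM, and dorsal skin was at 0.66 and 0.72 CPM, and wing was below thigh by 2.72 in log2 units and above dorsal skin by 2.94.

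On the wing side CRHR2, a receptor for urocortins, stood at 63.4 and 72.6 CPM in wing and at 4.85 and 4.20 CPM in scale (-3.64 ± 0.22, adjusted p = 6.29e-07). It was at 56.7 and 42.5 CPM in dorsal skin, which did not differ from wing beyond the spread (0.46, adjusted p = 0.175), and at 4.90 and 3.49 CPM in thigh. ESR2, the second estrogen receptor, stood at 10.2 and 13.4 CPM in wing and at 0.48 and 0.47 CPM in scale (-3.11 ± 0.22), and wing exceeded thigh by 2.75 and dorsal skin by 3.23. UCH-L1, a ubiquitin hydrolase abundant in neurons, stood at 137 and 117 CPM in wing and at 14.1 and 12.9 CPM in scale (-3.14 ± 0.20, adjusted p = 6.79e-07). CALB2, the calcium buffer calretinin, differed by -3.25 ± 0.32 and was highest in dorsal skin, at 76.8 and 99.1 CPM. SYPL1 (-3.10 ± 0.31), TIMP4, an inhibitor of metalloproteases (-3.09 ± 0.34), and GPR22, an orphan receptor (-3.04 ± 0.20), were lower too. In GRCg7b the spans of OMD, UCH-L1, ESR2, TIMP4 and GPR22 overlap those of other measured genes (CENPP, APBB2, MTHFD1, SYN2 and COG5), and reads could not be assigned by strand. The same limit holds for DLL1 (with FAM120B), FGF16 (ATRX), IGFBP7 (POLR2B), COL9A2 (SMAP2), DRAXIN (MAD2L2), SIM2 (HLCS), SLC8B1 (PLBD2), JUN (FGGY) and CD3E (MPZL2), for HOXD3 with HOXD4, and for HOXB3 with HOXB4, HOXB5 and HOXB6.

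**Figure D3:**
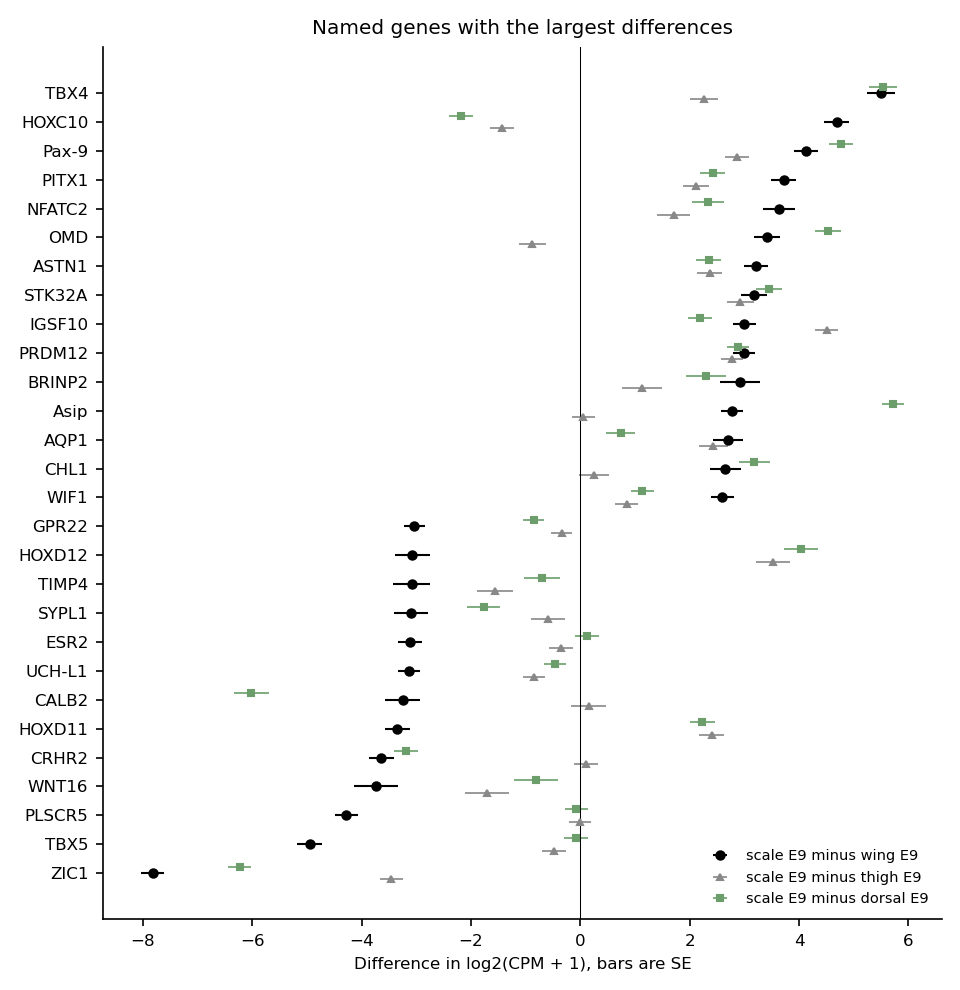
Differences of 28 named genes among those with the largest change, log2(CPM + 1), with bars of 1 SE. Black circles are scale E9 minus wing E9, grey triangles scale E9 minus thigh E9 and green squares scale E9 minus dorsal E9; the scale libraries are shared by all 3. For PLSCR5, TBX5 and ESR2 the grey and green marks lie near 0, and for STK32A and PRDM12 all 3 marks lie close together.

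TPH2, SLC6A4 and HTR7 were singled out after their values were seen and stand for no group. TPH2, which makes serotonin in neurons, stood at 1.85 and 1.66 CPM in wing and at 14.6 and 14.1 CPM in scale (2.48 ± 0.23, adjusted p = 1.87e-05). The serotonin transporter SLC6A4 stood at 2.21 and 2.99 CPM in wing and at 9.63 and 7.35 CPM in scale (1.40 ± 0.22, adjusted p = 0.00110). HTR7, a serotonin receptor, went the other way, at 8.19 and 9.17 CPM in wing and at 0.90 and 0.53 CPM in scale (-2.50 ± 0.24, adjusted p = 2.51e-05). TPH2 did not differ between wing and thigh beyond the spread (-0.21, adjusted p = 0.559), while HTR7 was higher in wing than in thigh by 1.85.

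Many collagen genes were higher in scale skin. Of 35 rows tested, 11 (31.4%) were higher and 1 (2.86%) lower, against 4.77% and 4.13% of all rows. The median was 0.36 against -0.005 for all rows. The higher count was 9, 10, 7 and 10 without scale replicates 1 and 2 and wing replicates 1 and 2, and 16 in both count tests. The lower count was 6 in DESeq2, 2 in edgeR, 4 without the thigh libraries and 0 without scale replicate 2 or wing replicate 1. COL2A1, the main fibrillar collagen of cartilage, stood at 147 and 206 CPM in wing and at 865 and 1004 CPM in scale (2.41 ± 0.31, adjusted p = 2.45e-04). COL20A1, a fibril-associated collagen, stood at 1.97 and 2.57 CPM in wing and at 16.7 and 19.6 CPM in scale (2.55 ± 0.38). COL9A2 stood at 4.60 and 4.80 CPM in wing and at 17.5 and 28.2 CPM in scale (2.03 ± 0.31), and COL13A1, a membrane collagen, differed by 1.64 ± 0.27. COL6A2, of the beaded filaments around mesenchymal cells, stood at 57.9 and 60.96 CPM in wing and at 119 and 123.15 CPM in scale (1.01 ± 0.15, adjusted p = 9.15e-04). Its partner COL6A1 (0.92 ± 0.17) lost its call without wing replicate 1 (adjusted p = 0.0726). COL13A1, COL6A1 and COL6A2 were singled out after their values were seen, and COL17A1, a collagen of basal keratinocytes, is given with its cell type.

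Other matrix genes moved both ways. Of 12 small leucine-rich proteoglycan genes 2 were higher and 1 lower, while edgeR, DESeq2 and the fit without the thigh libraries called 5 higher and the fits without 1 wing library called 1. OMD, osteomodulin, stood at 2.63 and 1.47 CPM in wing and at 33.2 and 28.8 CPM in scale (3.42 ± 0.24, adjusted p = 1.90e-06), with thigh higher still at 48.2 and 69.1 CPM. LUM, lumican, which regulates collagen fibril width, stood at 1164 and 1169 CPM in wing and at 2341 and 2419 CPM in scale (1.03 ± 0.20). Its call ended without wing replicate 1 (adjusted p = 0.0674) or wing replicate 2 (0.0539). ASPN, asporin, stood at 156 and 146 CPM in wing and at 29.3 and 27.7 CPM in scale (-2.36 ± 0.23, adjusted p = 3.30e-05). FBLN1, fibulin 1, stood at 613 and 469 CPM in wing and at 119 and 104 CPM in scale (-2.26 ± 0.17, adjusted p = 2.82e-06). In the fibroblast and matrix list as a whole 4 of 39 were higher and 6 lower, and the higher count was 15 in edgeR, 16 in DESeq2, 14 without the thigh libraries, 1 without wing replicate 1 and 2 without wing replicate 2. The fibroblast and matrix shares were 10.3% higher and 15.4% lower, and those of the proteoglycans 16.7% and 8.33%, against 4.77% and 4.13% of all rows. Of 40 matrix proteases and inhibitors 5 (12.5%) were higher and 6 (15%) lower, against the same shares of all rows. The higher count was 2 without scale replicate 1 or wing replicate 1 and 3 without wing replicate 2, and the lower count was 3 without scale replicate 2 or wing replicate 2. MMP27 stood at 27.4 and 40.6 CPM in wing and at 142 and 144.6 CPM in scale (2.07 ± 0.23, adjusted p = 9.22e-05), and ADAMTS18 differed by 2.34 ± 0.35. ADAM12 (-1.51 ± 0.26) was lower.

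Cartilage and tendon markers were called in both directions. Of 19 cartilage rows 4 were higher and 4 lower, or 21.1% in each direction, against 4.77% and 4.13% of all rows. The higher ones were COL2A1, COL9A2, COL11A1 and HAPLN1, and the lower ones COMP, MATN4, SOX6 and RUNX3. The summed level of the list was 670 and 745 CPM in wing and 1612 and 1699 CPM in scale. COL2A1, given above, holds most of this gap. HAPLN1, a link protein singled out after its values were seen, lost its call without scale replicate 2 (adjusted p = 0.0535) or wing replicate 1 (0.0513). MATN1, which marks mature cartilage, was at 0.54 to 1.05 CPM in all 4 libraries, and Sox9 was at 2.35 to 8.46 CPM and not called. COMP, a matrix protein of cartilage and tendon, stood at 20.3 and 22.3 CPM in wing and at 2.77 and 2.51 CPM in scale (-2.61 ± 0.19, adjusted p = 2.35e-06). MATN4 stood at 12.6 and 9.60 CPM in wing and at 1.59 and 1.93 CPM in scale (-2.12 ± 0.30). Among 14 tendon rows 1 (7.14%) was higher and 3 (21.4%) lower, and edgeR, DESeq2 and the fit without the thigh libraries each called 3 higher. TNMD, the tendon protein tenomodulin, stood at 415 and 404 CPM in wing and at 992 and 1119 CPM in scale (1.36 ± 0.27), a call that ended without scale replicate 2 (1.27, adjusted p = 0.0540). THBS4, a tendon thrombospondin, stood at 150 and 192 CPM in wing and at 52.8 and 43.1 CPM in scale (-1.81 ± 0.17, adjusted p = 2.51e-05). MKX, the tendon factor mohawk (-1.31 ± 0.33), lost its call without scale replicate 1 (adjusted p = 0.165), scale replicate 2 (0.0697) or wing replicate 1 (0.210).

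Keratinocyte transcripts were present in every library and varied between replicates. Of 34 rows tested 30 were above 0 and 4 below, with a median of 0.87, the highest of the marker lists. The summed level was 414 and 688 CPM in wing and 569 and 1109 CPM in scale, so that the groups overlapped. By the test 6 rows (17.6%) were higher and 1 (2.94%) lower, against 4.77% and 4.13% of all rows. The higher count was 8 without scale replicate 1 and 9 without wing replicate 2, and fell to 1 without scale replicate 2 or wing replicate 1. KRT5, a basal keratin, stood at 2.27 and 6.89 CPM in wing and at 12.5 and 38.9 CPM in scale (2.19 ± 0.48). COL17A1 stood at 7.65 and 25.3 CPM in wing and at 43.8 and 105 CPM in scale (2.19 ± 0.50). Both lost their call without scale replicate 2 (adjusted p = 0.116 and 0.140) or wing replicate 1 (0.142 and 0.169). PKP2, a desmosomal plakophilin, was less variable, at 5.44 and 6.79 CPM in wing and at 22.7 and 24.4 CPM in scale (1.79 ± 0.23, adjusted p = 2.39e-04). TFAP2C, an epidermal and placode factor, was lower, at 8.17 and 14.0 CPM against 25.0 and 30.4 CPM (-1.28 ± 0.23). The part of the epidermal share in results on epidermal genes was not tested. In the barrier and keratinization list none of 11 was called by limma, none had an unadjusted p under 0.05, and edgeR and DESeq2 each called 1 lower.

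Endothelial markers were lower (22.2%) more often than higher (3.7%), against 4.13% and 4.77% of all rows. Of 27 rows tested 6 were lower and 1 higher, with a median of -0.36, and the lower count was 6, 2, 4 and 2 without scale replicates 1 and 2 and wing replicates 1 and 2. The summed level was 698 and 862 CPM in wing and 696 and 471 CPM in scale, with scale replicate 1 just below the lower wing library. SOX18 is itself part of this list and sum, and without it the groups would overlap. The 6 lower rows were SOX18, TEK, EGFL7, MMRN2, FLT1 and EMCN. EGFL7, a secreted endothelial factor, stood at 36.8 and 43.1 CPM in wing and at 21.6 and 15.4 CPM in scale (-1.08 ± 0.20, adjusted p = 0.00372). TEK, an angiopoietin receptor, lost its call without scale replicate 2 (adjusted p = 0.122) or wing replicate 2 (0.152). CDH5, the endothelial cadherin, was not called (-0.65), and neither was PECAM1 (0.18). PROX1, which marks lymphatic endothelium among other cells, was higher in scale at 30.2 and 19.4 CPM against 4.54 and 4.37 CPM in wing (2.21 ± 0.28, adjusted p = 2.47e-04), while LYVE1, another lymphatic marker, was not called (-0.47). The part of vessel content in the SOX18 result was not tested. MYOCD, the smooth muscle coactivator, had a called row at 2.45 and 4.66 CPM in wing and 0.55 and 0.53 CPM in scale (-1.52 ± 0.27), and RGS5 was the other call among 18 smooth muscle and pericyte rows. RGS5, a pericyte marker (-0.77 ± 0.18), lost it without scale replicate 2 (adjusted p = 0.0909), wing replicate 1 (0.0869) or wing replicate 2 (0.117).

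**Figure D4:**
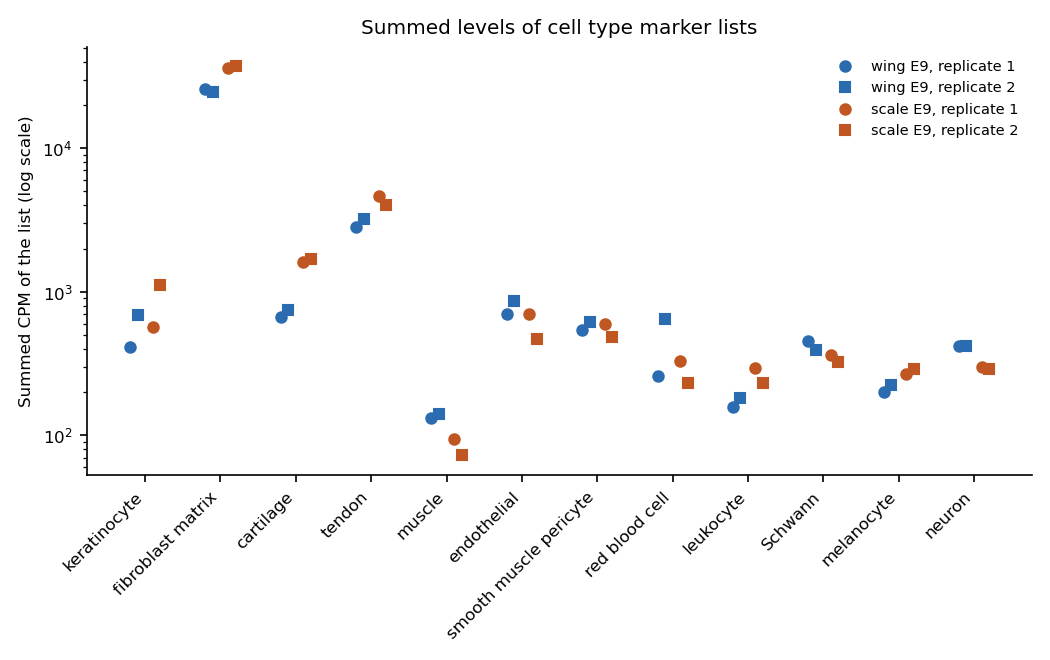
Summed CPM of the cell type marker lists in each library (log scale), wing E9 in blue and scale E9 in orange, circles for replicate 1 and squares for replicate 2. The keratinocyte, red blood cell and smooth muscle sums overlap between groups. The cartilage, fibroblast, tendon, leukocyte and melanocyte sums are higher in both scale libraries. The melanocyte sum includes both Asip rows. The neuron, muscle, Schwann and endothelial sums are lower in both, the endothelial sum by a narrow margin. Most of the gap in the cartilage sum comes from COL2A1. Of 39 fibroblast and matrix rows 4 (10.3%) were called higher and 6 (15.4%) lower, with a median of 0.02. Most of the gap in the neuron sum comes from UCH-L1.

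Red blood cell and leukocyte sums moved in different ways. Red blood cell rows summed to 261 and 652 CPM in wing and to 330 and 230 CPM in scale, and wing replicate 2 stood above the other 3 libraries. Of 12 such rows 2, TFRC and CA2, were lower by the test, and both calls were lost without scale replicate 1 (adjusted p = 0.100 and 0.319) or wing replicate 2 (0.107 and 0.255). The red blood cell calls were 16.7% of that list, against 4.13% of all rows called lower. Leukocyte rows were above 0 for all 19, with a median of 0.37. They summed to 157 and 182 CPM in wing and to 294 and 231 CPM in scale, without overlap. They gave 2 higher calls (10.5%, against 4.77% of all rows). Those were CD4 (1.15 ± 0.26) and CD3E (0.78 ± 0.20), and both ended without wing replicate 1 (adjusted p = 0.149 and 0.0840). CD4 was also lost without scale replicate 1 (0.154), and CD3E without scale replicate 2 (0.143) or wing replicate 2 (0.195). Of 15 muscle rows MEF2C was the only call (-1.48 ± 0.31), or 6.67% lower, against 4.13% of all rows. It was lost without scale replicate 2 (-1.12, adjusted p = 0.100) or wing replicate 2 (-1.41, 0.0596). The muscle markers TNNC2, TNNI1 and TNNI2 were at 0 to 0.84 CPM in all 4 libraries.

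Neuronal markers gave 4 lower (20%) and none higher of 20, against 4.13% and 4.77% of all rows. Their median was -0.42, with sums of 417 and 420 CPM in wing and 299 and 288 CPM in scale. UCH-L1, given above, holds most of the gap between these sums, and without it the groups would overlap. CHGA (-1.06) lost its call without scale replicate 2 (adjusted p = 0.109) or wing replicate 2 (0.174), and MAP2 (-0.80) without scale replicate 1 (0.166) or wing replicate 2 (0.194). ELAVL4, an RNA-binding protein of neurons, stood at 12.2 and 13.2 CPM in wing and at 4.64 and 4.79 CPM in scale (-1.26 ± 0.22, adjusted p = 0.00281). The axon gene STMN2 was at 0.21 to 0.95 CPM in the 4 libraries. Of 10 Schwann cell rows NGFR was the only call (-0.92 ± 0.25), and it was lost without scale replicate 2 (-0.53, adjusted p = 0.281), wing replicate 1 (-0.80, 0.265) or wing replicate 2 (-1.04, 0.0873). The melanocyte list, which also holds pigment signals such as Asip, gave 3 higher (16.7%) and 1 lower (5.56%) of 18 rows. The higher ones were both Asip rows, which measure 1 gene, and GPR143. The lower one, OCA2 (-1.01 ± 0.28), lost its call without scale replicate 1 (adjusted p = 0.285) or wing replicate 2 (0.348). GPR143, a pigment cell receptor, stood at 0.24 and 0.52 CPM in wing and at 4.71 and 3.85 CPM in scale (1.94 ± 0.22, adjusted p = 8.84e-05). The pigment enzyme genes TYR, DCT and TYRP1 were at 0.24 to 2.09 CPM and were not called. Of 7 Merkel cell rows 1 was higher and 1 lower, or 14.3% in each direction, against 4.77% and 4.13% of all rows. Their median was -0.15, and the lower one was CHGA, given above. The higher one was PIEZO2, a mechanosensitive channel of Merkel cells and sensory endings. It stood at 133 and 136 CPM in wing and at 326 and 337 CPM in scale (1.29 ± 0.21, adjusted p = 0.00141). The Merkel marker KRT20 stayed at 0.36 to 0.97 CPM.

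Ion channel and gap junction genes gave 15 (13.9%) higher and 10 (9.26%) lower of 108, against 4.77% and 4.13% of all rows. The higher count was 6, 5, 6 and 9 without scale replicates 1 and 2 and wing replicates 1 and 2, and the lower count 8 to 10. The largest changes were in potassium channel genes. KCNQ5 stood at 11.8 and 13.5 CPM in wing and at 1.32 and 1.05 CPM in scale (-2.64 ± 0.21, adjusted p = 4.62e-06). KCNS2 stood at 26.3 and 26.0 CPM in wing and at 5.75 and 3.91 CPM in scale (-2.24 ± 0.27). KCNJ5, an inward rectifier, differed by -1.87 ± 0.24. KCNMB4, a subunit of calcium-activated channels, stood at 15.7 and 11.9 CPM in wing and at 58.2 and 60.2 CPM in scale (2.04 ± 0.33). CACNA1I, a calcium channel (1.70 ± 0.24), and SCN4B, a sodium channel subunit (1.81 ± 0.27), both singled out after their values were seen, were higher in scale.

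Transporter genes were called at shares close to those of all rows. Of 212 solute carrier rows 13 (6.13%) were higher and 7 (3.30%) lower, against 4.77% and 4.13% of all rows, with a median of -0.01. The higher count was 10, 7, 5 and 12 and the lower count 3, 6, 5 and 3 in the 4 fits, in the order given for channels. The lower count was 13 in edgeR, 16 in DESeq2 and 15 without the thigh libraries. SLC8B1, a mitochondrial sodium-calcium exchanger, stood at 10.8 and 11.8 CPM in wing and at 46.7 and 41.0 CPM in scale (1.87 ± 0.22). SLC17A9, which loads nucleotides into vesicles, differed by 1.98 ± 0.23, and SLC26A4, the anion exchanger pendrin, by -2.03 ± 0.29. Of 57 axon guidance rows 4 (7.02%) were higher and 7 (12.3%) lower. The lower count was 6 or 7 in the 4 fits, and the higher count 1 or 2, but 8 in edgeR and without the thigh libraries and 9 in DESeq2. UNC5D, a netrin receptor, stood at 9.08 and 15.8 CPM in wing and at 1.80 and 1.63 CPM in scale (-2.26 ± 0.29, adjusted p = 2.44e-04). NTN3, a netrin, stood at 89.2 and 70.0 CPM in wing and at 20.4 and 20.3 CPM in scale (-1.91 ± 0.26). SEMA3C, a secreted semaphorin, stood at 234 and 233 CPM in wing and at 69.8 and 91.3 CPM in scale (-1.54 ± 0.19, adjusted p = 1.70e-04). EPHA7 (-1.55 ± 0.25) and DRAXIN (-1.90 ± 0.30) were lower as well. SEMA3C was singled out after its values were seen. Among 47 cadherin and integrin rows 4 were higher and 4 lower, and the lower count was 2 in the fits without a compared library, or 1 without wing replicate 2. Without wing replicate 1 the higher count was 2, and in DESeq2 8. Calls among cadherin and integrin rows were 8.51% in each direction, against 4.77% and 4.13% of all rows. Their largest difference was that of CDH13, an anchored cadherin, at 30.4 and 36.6 CPM in wing and 122 and 115 CPM in scale (1.79 ± 0.18, adjusted p = 4.34e-05).

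**Figure D5:**
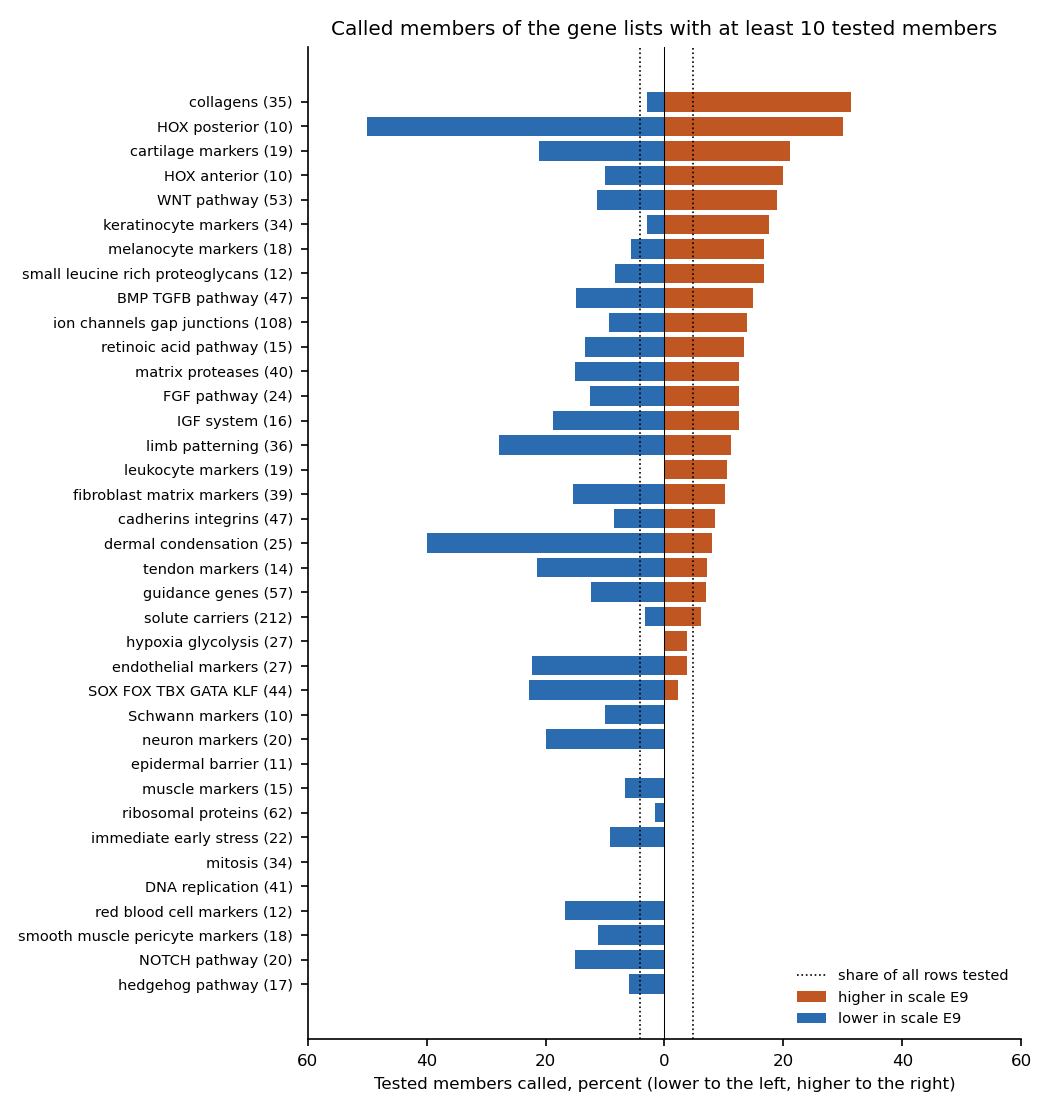
Percent of the tested members of each gene list (number tested in brackets, lists of at least 10) that were called higher in scale E9 (orange, to the right) or lower (blue, to the left). Dotted lines mark the shares of all 12277 rows, 4.77% higher and 4.13% lower. Collagens have 11 of 35 members higher and the feather bud (dermal condensation) list 10 of 25 lower.

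Cell cycle genes held no limma call. None of 41 DNA replication genes was called by limma, edgeR or DESeq2, and 1 had an unadjusted p under 0.05, in the lower direction. None of 34 mitosis genes was called by limma or edgeR, DESeq2 called 1 lower, and 1 had an unadjusted p under 0.05. Of 62 ribosomal protein genes 61 were below 0, with a median of -0.32 and sums of 91193 and 87918 CPM in wing and 70803 and 72591 CPM in scale. By limma 1 of them was lower, RPS13 (-0.89 ± 0.23), a call that ended without scale replicate 1 (-0.65, adjusted p = 0.279), wing replicate 1 (-0.88, 0.169) or wing replicate 2 (-0.90, 0.130). More were called lower by limma without the thigh libraries (13), by edgeR (15) and by DESeq2 (25), and none higher in any of these. Of 27 hypoxia and glycolysis genes CA9, a carbonic anhydrase induced by low oxygen, was the only call, at 51.7 and 47.0 CPM in wing and 157 and 160 CPM in scale (1.67 ± 0.21, adjusted p = 1.98e-04). Of 22 immediate early and stress genes FOS (-2.14 ± 0.55) and JUN (-1.25 ± 0.29) were lower, and 5 were lower in edgeR and without the thigh libraries and 4 in DESeq2. FOS varied within wing, at 6.81 and 37.7 CPM, and both calls, FOS given first, were lost without wing replicate 2 (-0.99, adjusted p = 0.228, and -1.02, 0.139), scale replicate 1 (-2.41, 0.0842, and -1.35, 0.0673) or scale replicate 2 (-1.88, 0.156, and -1.15, 0.104).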

How the data were processed

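The deposited table held 12297 transcript rows and 12 columns of signal, read counts that the authors scaled to an effective library size (CPM). All columns matched a library. TopHat2, Partek, HTSeq, edgeR and the build galGal4 appear in the tool list per the submitters' processing notes, which give no version, role or order. Libraries were made from Trizol-extracted total RNA with a TruSeq RNA V2 kit, per the labels' protocols. An identifier stood where a symbol was missing in 1300 rows.

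Values were analysed as log2(CPM + 1). Rows reaching 1 CPM in 2 or more of 12 libraries were tested (20 removed) in limma 3.58.1 (R 4.3.3), with 1 mean per group over all libraries, a mean-variance trend, and 6 residual and 6.95 prior degrees of freedom. Low values were whole multiples of 1 read (100.0% within 0.0055 CPM). A separate check did not accept whole reads for thigh replicate 2. Reads recovered from 11 libraries, thigh replicate 2 left out, were tested in edgeR 4.0.16 (1743 rows called) and DESeq2 1.42.0 (1923). The scripts were tested on simulated data.

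Named genes were the 15 largest differences in each direction among called rows with a symbol, at least 5 CPM in the higher group and no overlap between groups, all study regulators, limb identity, ZIC and HOX genes, and no more than 4 called genes from any other list. Other genes, uncalled members and the neighbour counts were chosen after their values were seen. The comparison, the members and the 44 lists were chosen with earlier results of these data known. Gene order and overlaps came from RefSeq's GRCg7b list, without coordinates. Replicate numbers were not taken as pairs. Sequences were not analysed here. Some genes that the rule names are not reported here.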

Additional observations from a re-analysis of the deposited data

How the results depend on the processing

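No called difference changed sign in any of 23 alternatives. The balance of higher and lower rows (585 and 507) turned without scale replicate 1 (308 and 321) and without wing replicate 1 (223 and 277). Rows called were 1773 without the thigh E9 libraries (985 higher, 788 lower), 1743 by edgeR (1005 higher) and 1923 by DESeq2 (1065 higher, 858 lower) on recovered reads. Leaving out 1 library gave 500 to 1773 calls, 223 to 983 higher and 277 to 790 lower, the fewest without wing replicate 1 and the most without thigh replicate 1. A lone library is then assumed to vary like the other groups. For wing against thigh (2561 calls) these fits gave 882 to 4697. For wing against dorsal (2469 calls) they gave 1108 to 3802, and 3807 came without the thigh libraries, 3849 by edgeR and 3781 by DESeq2. The edgeR and DESeq2 tests left out thigh replicate 2. Their counts are to be read beside those of limma without the thigh libraries. Those were 1773 for scale against wing and 3807 for wing against dorsal. With a replicate block 1163 rows were called, 630 higher. The numbers share no stated source, and differences between replicates 1 and 2 correlated at -0.07 between wing and scale. Depth limits what can be said of genes under about 0.2 CPM. Of 4127 values of named genes for scale against wing under an alternative, 3942 kept their side of the threshold, 174 lost a call and 11 gained one. Besides the fits without a compared library, calls ended with only the 4 libraries compared for LHX9, CHGA, CA2, OCA2, HOXD4 and FOS (adjusted p of 0.0501 to 0.0909), without dorsal libraries for LHX9, PAPPA2, PAPPA, HOXD4 and NGFR (0.0520 to 0.0640), in edgeR for LHX9 and EVX2, in DESeq2 for LHX9, EVX2, HOXD4 and OCA2 (0.0501), with no trend for LHX9 and NGFR (0.0542) and at a pseudocount of 2 CPM for PAPPA2 (0.101). Counts of members called in a list moved by over 1.5 times in many of these fits. They are given with many of the lists but not with all, and not for every fit. The other filters, pseudocounts, scalings and settings of the moderation kept the 3 counts of scale against wing within 1.5 times.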
